A study of Mus musculus with 8 samples.

Results

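The Notch ligands Jag1, Jag2, Dll1 and Dll4, the receptors Notch1, Notch2 and Notch3 and the target genes Hes1, Hey1 and Hey2 were followed in whole lungs of mouse embryos bred to lack the Polycomb enzyme Ezh2 in the epithelium. These 10 genes were chosen by symbol among 22180 genes with a single gene symbol on the array, and each was read from its probe set with the highest mean. The mutant group held 4 Shh-cre:Ezh2-flox/flox embryos, which carry the Cre recombinase under control of Shh together with a floxed Ezh2 gene on both chromosomes. The control group held 4 Shh-cre embryos. All 8 were taken at embryonic day 14.5 on a mixed C57BL/6 x 129S6 background, with 1 array per embryo. Littermates always shared a genotype, with 4 litters of 2 embryos in all, so no mutant had a control from its own litter. Mutants 1 and 2 are called litter 3, mutants 3 and 4 litter 4, controls 1 and 2 litter 1 and controls 3 and 4 litter 2. The Cre allele, which both groups carry, sits at the Shh locus and acts in the lung epithelium, while vessels, mesenchyme and nerves keep Ezh2 and add to every value. Values are RMA-normalized log2 expression per probe set, in which 1 unit is a doubling, and levels of different genes are not compared because their probes differ.

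Notch signalling passes between touching cells. A ligand of the Jagged or Delta family on the sending cell binds a Notch receptor on its neighbour, the receptor is cut by an ADAM protease and then by gamma-secretase, and the freed intracellular part joins the DNA-binding protein RBPJ in the nucleus and switches on repressors of the HES and HEY families. In the mouse airway this pathway holds back the neuroendocrine and multiciliated fates and favours secretory club cells. In vessels it directs arterial identity and the growth of mural cells.

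The lung label was borne out by high values of the lung epithelial regulator Nkx2-1, at 10.74 ± 0.11 in mutant lungs and 10.79 ± 0.10 in control lungs (SD, n = 4 each), and of the surfactant gene Sftpc, at 12.93 ± 0.14 in mutant lungs and 12.85 ± 0.17 in control lungs (SD, n = 4 each). Ezh2 itself, which cells outside the epithelium also express, had 11.78 ± 0.02 in mutant lungs and 11.87 ± 0.05 in control lungs (SD, n = 4 each), a difference that missed the threshold (adjusted p = 0.652, limma) although every mutant lay below every control. Mutant 3, control 1 and control 2 had the low Xist values of males, at 6.42, 6.74 and 6.37. Over all genes, 134 of 22180, or 0.604%, rose in mutants and 55, or 0.248%, fell (limma, Benjamini-Hochberg adjusted p under 0.05).

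Among the 10 Notch genes 1 rose, Jag2, 0 fell and 9 did not pass, where 0.852% of all genes were called in either direction. At an unadjusted p under 0.05 there were 2 of the 10, Jag2 and the receptor Notch2, against 9.87% of all genes. These were also the 2 whose mutant and control values did not overlap, both higher in mutants, where 4.48% of all genes were separated in that direction. The median log2 change was 0.05 over the 10 genes and 0.01 over all genes. Changes were above 0 for 7 of the 10, 1 of them Hey2 at only 0.002, and for 11728 of the 22180 genes. By role the median was 0.11 for the 4 ligands, 0.16 for the 3 receptors and −0.02 for the 3 targets. Since whole lungs were measured, more or fewer cells of a type and more or less RNA per cell cannot be told apart in any of these values.

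**Figure D1:**
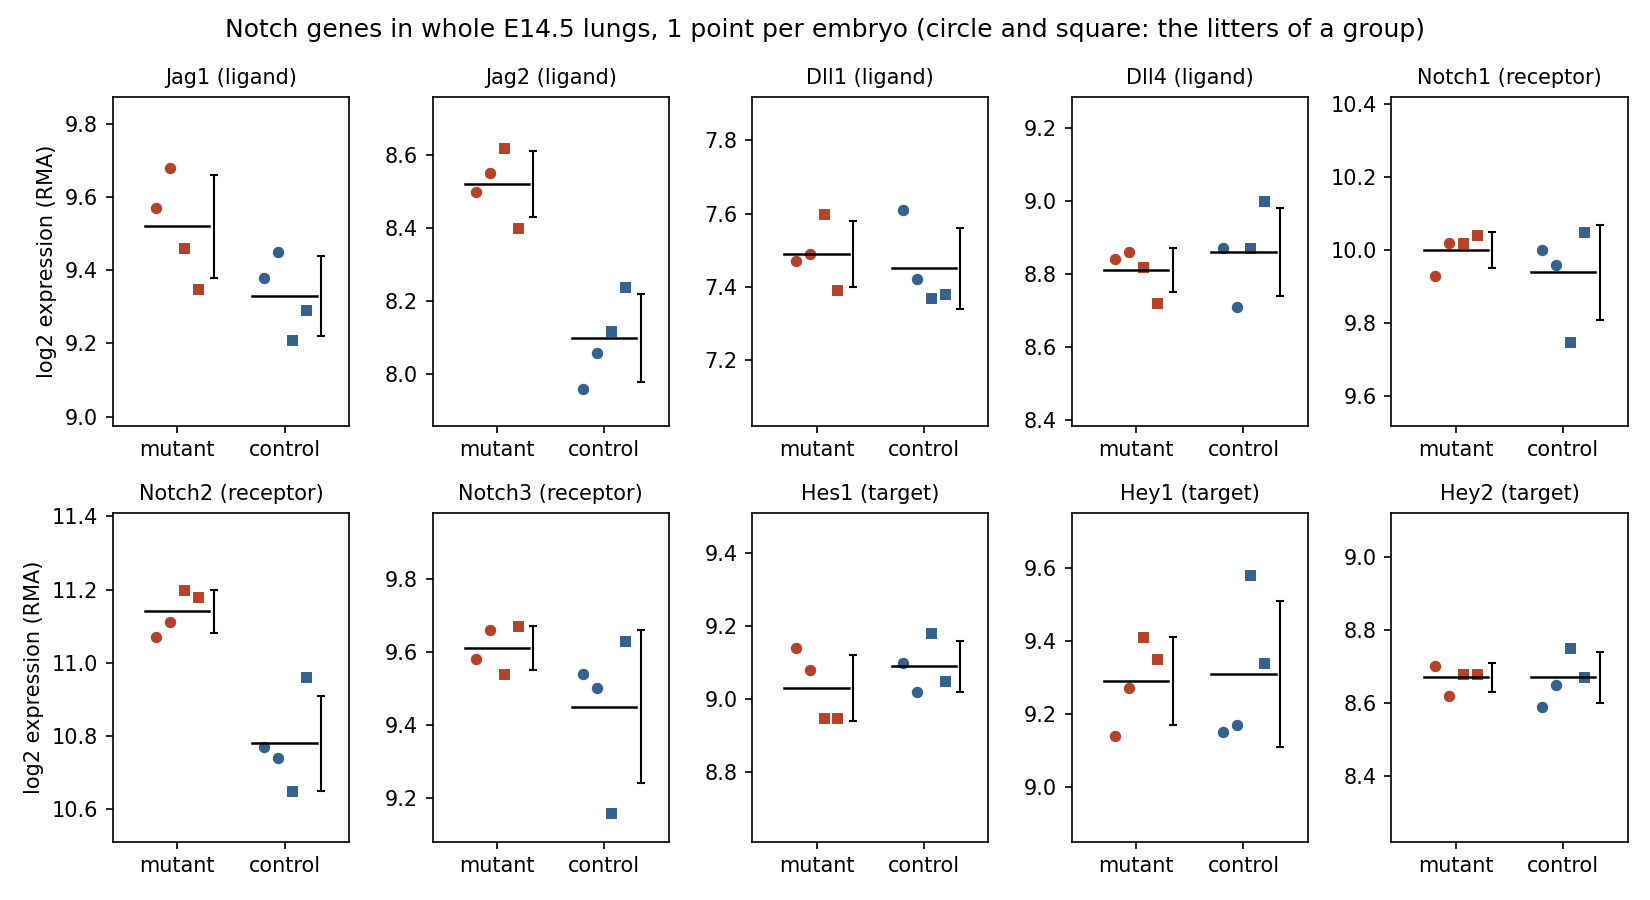
Log2 expression (RMA, y axis, each panel spanning the same number of log2 units) of the 10 Notch genes in each embryo, mutants in red at the left and controls in blue at the right, with circles and squares for the litters of a group, lines for the means and bars for the SD. Mutant and control points separate for Jag2 (lowest mutant 8.40, highest control 8.24) and Notch2 (11.07 and 10.96) and overlap in the other panels.

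Jag2 encodes a Jagged-family ligand, which in mice is needed for limb, palate and thymus development. Its log2 value was 8.50, 8.55, 8.62 and 8.40 in mutants 1 to 4, against 7.96, 8.06, 8.12 and 8.24 in controls 1 to 4. Every mutant lay above every control, and the gap between the lowest mutant and the highest control was 0.16. Mean values were 8.52 ± 0.09 in mutants and 8.10 ± 0.12 in controls (SD, n = 4 each). The log2 change was 0.42 ± 0.08 (SE), with a 95% confidence interval of 0.25 to 0.60, which is a rise of 1.34-fold (1.19-fold to 1.51-fold). Jag2 passed over all genes (limma, Benjamini-Hochberg adjusted p = 0.0336) and ranked 163 of 22180 by p. The exact permutation p was 0.0286, two-sided, the smallest possible with groups of 4, and treats littermates as independent. Both mutant litters, with means of 8.52 and 8.51, were above both control litters, with means of 8.01 and 8.18.

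The rise of Jag2 had the same direction in 24 of 24 alternative settings, with log2 changes of 0.34 to 0.51, but its call was lost in 15 of them. Leaving out any 1 embryo ended the call (adjusted p 0.0502 to 0.0833, limma), and averaging littermates ended it too (adjusted p = 0.113, limma).

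Notch2 encodes the receptor that in mouse airways is the main one for choosing the secretory fate. Its log2 value was 11.07, 11.11, 11.20 and 11.18 in mutants 1 to 4, against 10.77, 10.74, 10.65 and 10.96 in controls 1 to 4. The groups did not overlap, and control 4 came closest to the mutants, 0.11 below the lowest of them. The means were 11.14 ± 0.06 in mutants and 10.78 ± 0.13 in controls (SD, n = 4 each). The log2 change was 0.36 ± 0.08 (SE), with a 95% confidence interval of 0.19 to 0.53, or 1.28-fold. Over all genes it missed the threshold (limma, Benjamini-Hochberg adjusted p = 0.0718), at rank 254 of 22180 by p. The exact permutation p was 0.0286, two-sided. Litter means were 11.09 and 11.19 in mutants, against 10.76 and 10.80 in controls.

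Notch2 was higher in mutants in 24 of 24 alternatives, with log2 changes of 0.31 to 0.42, and passed in 6 of them. Among these were the fit without control 4 (adjusted p = 0.0319, limma) and the fit with Xist level as a covariate (adjusted p = 0.0248, limma).

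**Figure D2:**
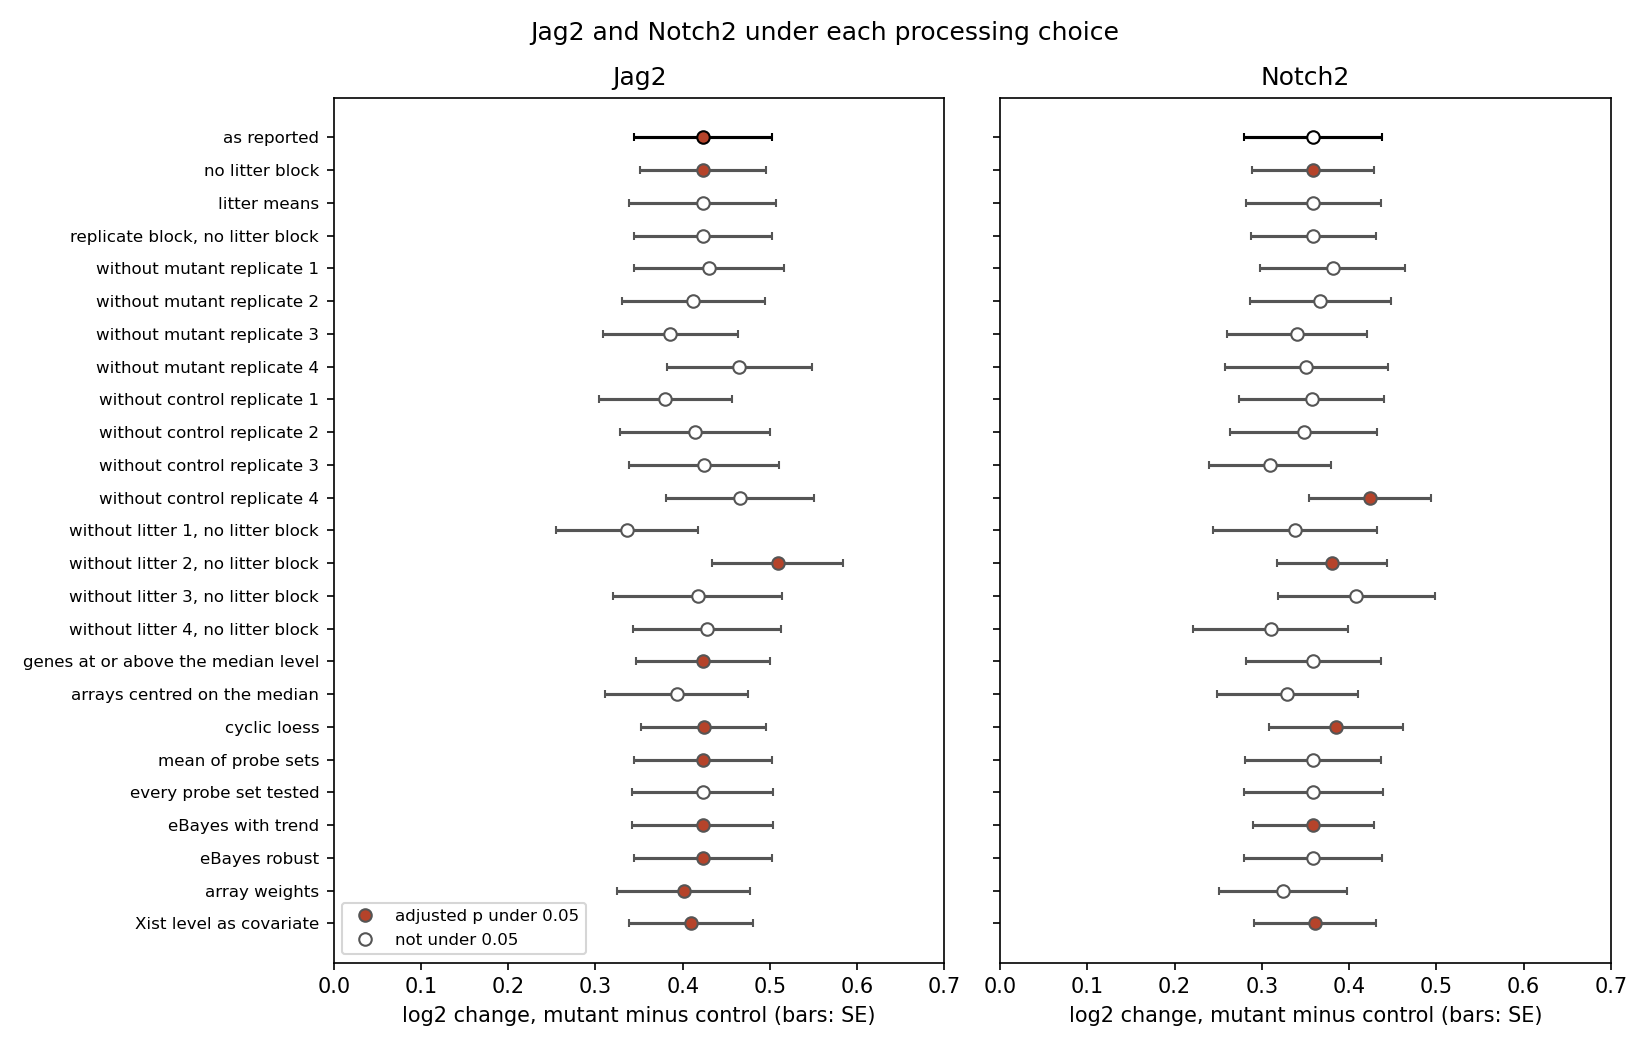
Log2 change (mutant minus control, x axis, bars for the SE) of Jag2 at the left and Notch2 at the right under the reported fit in the top line and under each alternative below it. Filled points have an adjusted p under 0.05: 9 of 24 alternatives for Jag2 and 6 of 24 for Notch2, with every point right of 0.

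The start regions of these genes are shown because Polycomb complexes in mammals are recruited to CpG-rich promoters, although no chromatin mark was measured here. Sequences of 300 bases, 250 before and 50 after an annotated start, were taken from RefSeq (GRCm38.p6) for 8 of the 10 genes, 9 regions in all. Hes1 and Hey1 are the members with no region here. Jag2 (chr12:112929446-112929745, minus strand) and Notch2 (chr3:98013288-98013587, plus strand) are printed 5′ to 3′ with each CpG in capitals.
Jag2: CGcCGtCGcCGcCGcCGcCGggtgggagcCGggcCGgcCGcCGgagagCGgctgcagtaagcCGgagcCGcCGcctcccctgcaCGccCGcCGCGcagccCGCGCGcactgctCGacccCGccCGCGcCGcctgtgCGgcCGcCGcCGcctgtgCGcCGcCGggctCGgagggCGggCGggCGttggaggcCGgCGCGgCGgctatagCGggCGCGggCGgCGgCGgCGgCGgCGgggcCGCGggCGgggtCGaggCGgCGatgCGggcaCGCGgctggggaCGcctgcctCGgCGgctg
Notch2: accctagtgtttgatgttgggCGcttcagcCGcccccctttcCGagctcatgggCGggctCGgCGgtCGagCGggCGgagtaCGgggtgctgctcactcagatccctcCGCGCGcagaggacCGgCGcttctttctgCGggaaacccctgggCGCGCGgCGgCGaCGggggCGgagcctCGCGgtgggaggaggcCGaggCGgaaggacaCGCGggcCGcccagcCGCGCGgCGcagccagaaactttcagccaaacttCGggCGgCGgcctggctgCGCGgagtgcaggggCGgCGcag
The Jag2 region holds 63 CpG dinucleotides and is 86.0% G and C. Only 10 of 32851 annotated start regions, or 0.0304%, hold as many, itself included, and the highest count of any region is 67. The Jag2 region belongs to an annotated start inside the gene, which spans chr12:112907803-112929812, and all its bases lie within that span. Its count therefore does not describe the bases upstream of the gene's outer end, which were not counted. The Notch2 region holds 41, a count reached by 3.46% of regions. The other 7 regions hold 15 to 29 CpG, against a median of 7 over all regions. The counts describe the sequence and were not tested against the expression changes.

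The remaining ligands did not pass. Jag1, the other Jagged ligand, best known from bile duct and vessel development, had log2 values of 9.57, 9.68, 9.46 and 9.35 in mutants 1 to 4, against 9.38, 9.45, 9.21 and 9.29 in controls 1 to 4. The groups overlapped, with mutants 1 and 2, which are littermates, the highest of all 8 and mutant 3 only just above the highest control. Jag1 had a log2 change of 0.18 ± 0.08 (SE; adjusted p = 0.512, limma) and an exact permutation p of 0.1143, two-sided. Dll1, a Delta ligand found in pulmonary neuroendocrine cells, ranged from 7.39 to 7.60 in mutants and from 7.37 to 7.61 in controls, with a log2 change of 0.04 ± 0.08 (SE). Its second, dimmer probe set gave a log2 change of 0.02 ± 0.11 (SE). Dll4, the Delta ligand of sprouting and arterial endothelium, ranged from 8.72 to 8.86 in mutants and from 8.71 to 9.00 in controls, with a log2 change of −0.05 ± 0.07 (SE). For Dll1 the 95% confidence interval was −0.13 to 0.21 and for Dll4 −0.22 to 0.11, so neither interval of whole-lung change reached the 0.42 of Jag2. Dll1 lay below the level of the median gene, where normalization draws changes towards 0. A larger rise within the cells that express either gene is not excluded.

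The ligands are set side by side within each embryo as a description only, with no test, because Jag2 and Notch2 were picked for these differences after their values were seen. Probes differ between genes, so only the shift between genotypes can be read. Jag2 minus Dll4 on the log2 scale ran from −0.34 to −0.19 in mutants and from −0.91 to −0.65 in controls. Jag2 minus Dll1 ran from 1.01 to 1.06 in mutants and from 0.36 to 0.87 in controls. Jag2 minus Jag1 ran from −1.13 to −0.84 in mutants and from −1.42 to −1.04 in controls, with overlap.

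Of the receptors, Notch1, which acts in vessels and in developing airway epithelium, had log2 values of 9.93 to 10.04 in mutants and 9.75 to 10.05 in controls. Control 3 was lowest and control 4 highest, so the mutants lay wholly inside the control range. The log2 change was 0.07 ± 0.08 (SE) with a 95% confidence interval of −0.11 to 0.24. Notch3, a receptor of vascular smooth muscle and pericytes, was 9.58, 9.66, 9.54 and 9.67 in mutants 1 to 4, against 9.54, 9.50, 9.16 and 9.63 in controls 1 to 4. Apart from control 3 the controls fell within or just below the range of the mutants. Its log2 change was 0.16 ± 0.10 (SE; adjusted p = 0.701, limma), and 0.05 without control 3. Within embryos, again with no test, Notch2 minus Notch1 was 1.09 to 1.18 in mutants and 0.78 to 0.90 in controls, and Notch2 minus Notch3 was 1.45 to 1.66 in mutants and 1.24 to 1.49 in controls.

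The 3 target genes encode repressors of the basic helix-loop-helix class that are transcribed when Notch is active. Hes1, which in mouse lung restrains the neuroendocrine fate, had log2 values of 9.14, 9.08, 8.95 and 8.95 in mutants 1 to 4, against 9.10, 9.02, 9.18 and 9.05 in controls 1 to 4. The groups overlapped, and the mutant litters themselves differed, at 9.11 and 8.95. Its log2 change was −0.06 ± 0.07 (SE), with a 95% confidence interval of −0.21 to 0.09. Hey1, a target active in endothelium and other Notch-responsive cells, was 9.14, 9.27, 9.41 and 9.35 in mutants 1 to 4, against 9.15, 9.17, 9.58 and 9.34 in controls 1 to 4. The spread between control litters, with means of 9.16 and 9.46, exceeded the difference between genotypes, which was −0.02 ± 0.10 (SE) on the log2 scale. Hey2, which is expressed in arteries and the heart, lay between 8.62 and 8.70 in mutants and between 8.59 and 8.75 in controls, with a log2 change of 0.00 ± 0.06 (SE). Hes1, Hey1 and Hey2 had adjusted p values of 0.844, 0.977 and 0.996 (limma). The upper ends of the 3 intervals, 0.09, 0.21 and 0.13, were below the point estimates of Jag2 and Notch2. The interval of Notch2 starts at 0.19, however, and so overlaps that of Hey1. None of the 3 passed in any of 24 alternatives.

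**Figure D3:**
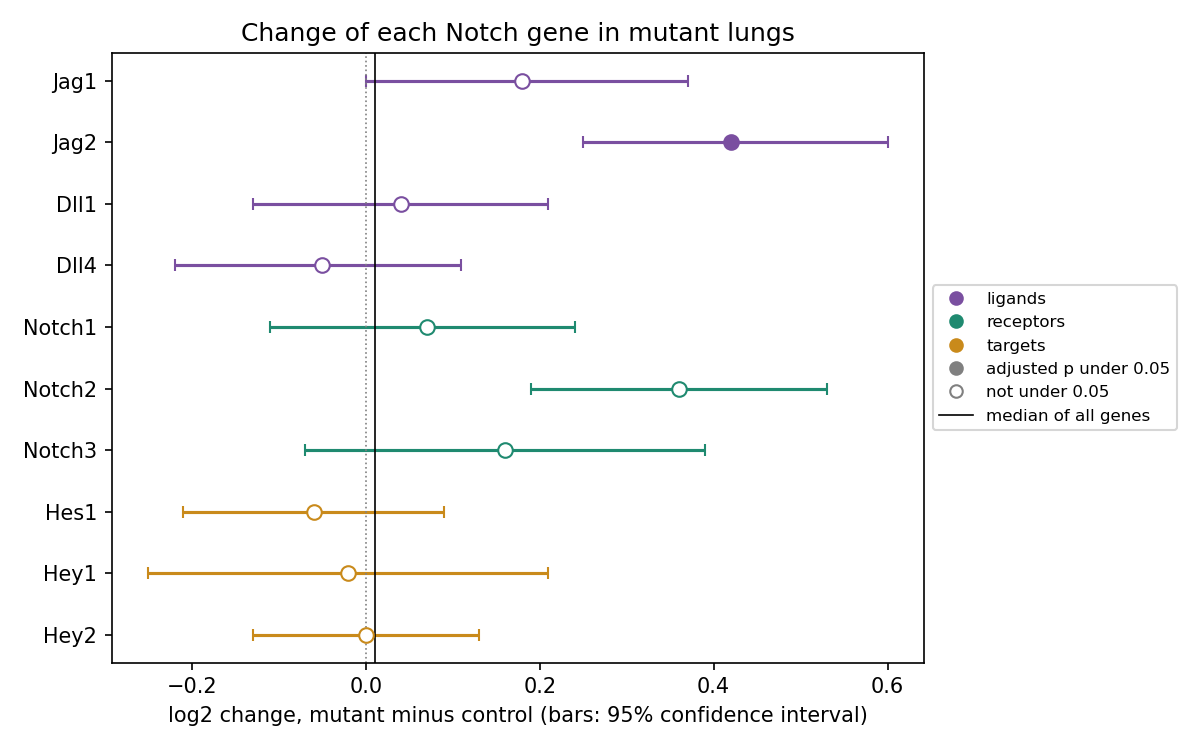
Log2 change of each Notch gene (mutant minus control, x axis) with its 95% confidence interval, coloured by role, with a line at the median of all genes (0.01). Jag2 at 0.42 is the filled point past the threshold, Notch2 at 0.36 has an interval clear of 0 without passing over all genes, and the targets Hes1, Hey1 and Hey2 lie at −0.06, −0.02 and 0.00.

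The Hey2 start region (GRCm38.p6, chr10:30842734-30843033, minus strand, RefSeq) is shown because it alone among the 9 regions searched, none of them from Hes1 or Hey1, holds the core letters bound by RBPJ. TGGGAA and its reverse complement TTCCCA were searched on both strands, and each match is in capitals.
Hey2: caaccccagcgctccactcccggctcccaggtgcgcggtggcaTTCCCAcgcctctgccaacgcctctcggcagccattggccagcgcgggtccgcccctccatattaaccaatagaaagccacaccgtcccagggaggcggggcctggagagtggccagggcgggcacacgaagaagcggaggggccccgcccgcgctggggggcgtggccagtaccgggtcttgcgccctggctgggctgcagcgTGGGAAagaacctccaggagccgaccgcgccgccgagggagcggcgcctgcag
The matches begin at bases 44 and 248 of the printed window and face opposite ways. At least 1 match is present in 25.6% of all 32851 start regions, so a match is common, and it does not by itself mark a working site.

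Control 3 lay at an end of the control range for several of these genes, although Dixon's test at its 95% critical value marked no embryo as an outlier in the 36 groups of 4 tested. It was the lowest control for 5 of the 7 ligands and receptors (Jag1, Dll1, Notch1, Notch2 and Notch3) and the highest for 3 of the 3 targets. Such positions were not particular to the Notch genes. Control 3 was also lowest for Col1a1 (10.50, against 10.97 to 11.10 in the other controls) and Spen (8.89, against 9.23 to 9.32). It was highest for Epcam (11.32, against 11.12 to 11.14) and Psenen (12.56, against 12.26 to 12.36). Without it the log2 changes were 0.42 for Jag2 (adjusted p = 0.071, limma) and 0.31 for Notch2 (adjusted p = 0.116, limma). Without it Notch1 was at 0.00, Jag1 at 0.15, Hes1 at −0.03 and Hey1 at 0.07, and none passed.

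The rest of the pathway was read from 56 measured genes of a list of 59. Of these 0 rose, 0 fell and 56 missed the threshold by limma. At an unadjusted p under 0.05 there were 5, 4 higher and 1 lower, against 9.87% of all genes. All 24 alternatives also gave 0 calls. The median log2 change was 0.02 and single changes ran from −0.18 to 0.21, a range that does not reach Notch2. Notch4, the receptor found chiefly in endothelium, was 8.86, 8.92, 9.09 and 9.14 in mutants 1 to 4, against 8.78, 8.85, 8.67 and 8.86 in controls 1 to 4. The lowest mutant and the highest control nearly met, and the difference in means was 0.21 ± 0.08 (SE; adjusted p = 0.399, limma). The other ligands and ligand-like genes Dll3, Dlk1, Dlk2 and Dner had log2 changes of 0.09, 0.13, 0.04 and −0.04.

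Genes for receptor cleavage had a median log2 change of 0.06 over 9 measured. Aph1c, a gamma-secretase subunit, was 8.34, 8.43, 8.36 and 8.38 in mutants 1 to 4, against 8.17, 8.17, 8.20 and 8.14 in controls 1 to 4. The groups were clearly apart and the spread within each was small, with a log2 change of 0.21 ± 0.05 (SE), yet over all genes Aph1c missed the threshold (adjusted p = 0.157, limma). Ncstn, which encodes the subunit nicastrin, had a log2 change of 0.13 and groups that barely separated. The proteases Adam10 and Adam17 had 0.02 and −0.05.

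In the nucleus, Rbpj was 10.65, 10.67, 10.22 and 10.53 in mutants 1 to 4, against 10.70, 10.75, 10.63 and 10.71 in controls 1 to 4. Mutant 3 was lowest, and the means differed by −0.18 ± 0.10 (SE; adjusted p = 0.608, limma). The change of Rbpj was −0.084 without mutant 3, −0.055 with its probe sets averaged and −0.040 without litter 4 and the litter block. The acetyltransferase gene Kat2b had a log2 change of −0.17 ± 0.06 (SE) and the coactivator gene Maml2 0.17 ± 0.07 (SE), in opposite directions and neither past the threshold. Among modifiers of the receptor, the Fringe glycosyltransferase gene Lfng had −0.12 and the ubiquitin ligase gene Itch −0.13. The 5 glycosylation genes all had changes at or below 0, with a median of −0.03. The other HES and HEY genes ran from −0.01 to 0.08, among them Hes5 at 0.06, Heyl at 0.04 and Hes6 at 0.00, and the feedback target Nrarp had 0.01.

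**Figure D4:**
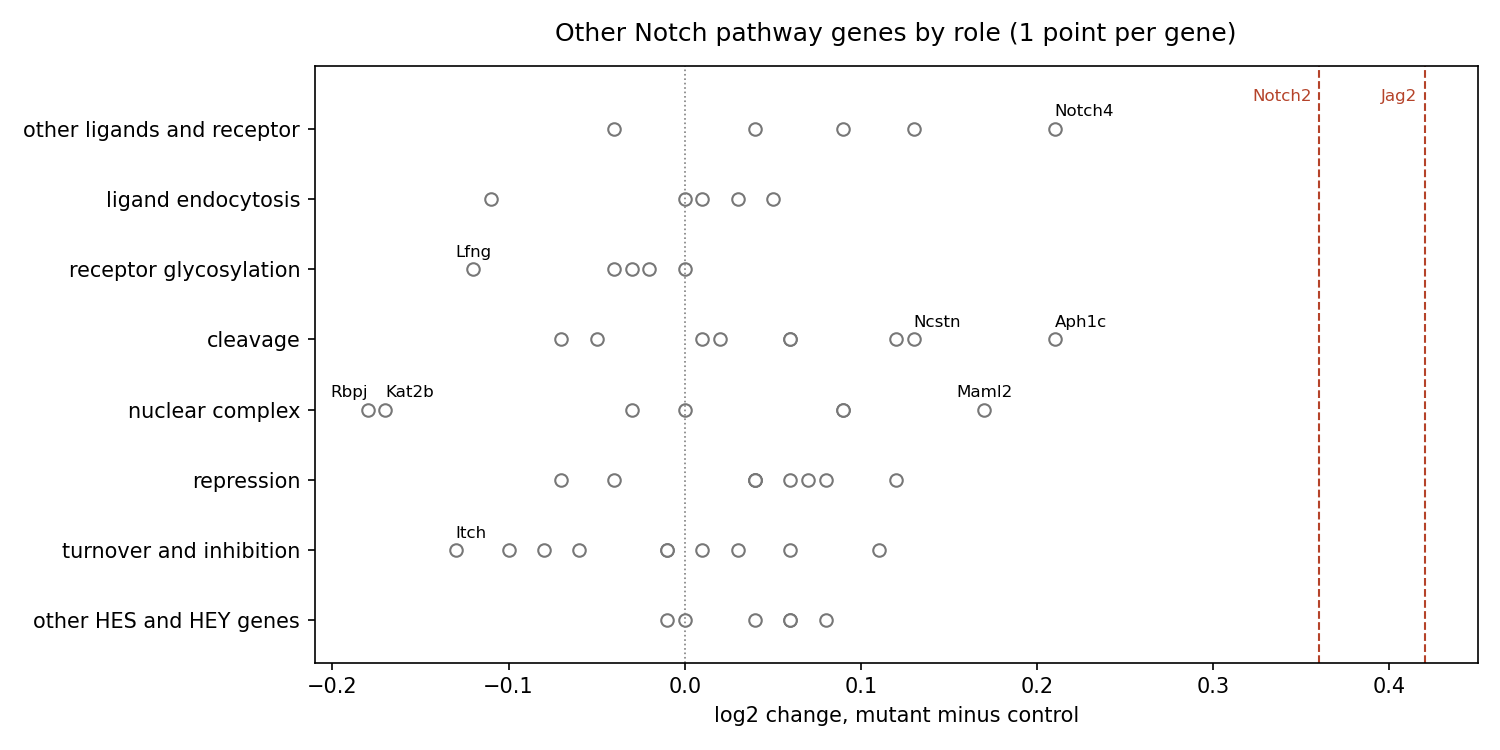
Log2 change (mutant minus control, x axis) of the 56 other Notch pathway genes, 1 open point per gene, in rows by role, with dashed lines at Jag2 (0.42) and Notch2 (0.36). All points lie between −0.18 and 0.21, left of both lines, and none passed the threshold.

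Marker levels of the cells that carry these genes are given beside them, and their part in the results was not tested. Markers of basal and stratified epithelium had 5 of 8 genes higher and 0 lower in mutants. Their mean log2 level was 7.42 to 7.53 in mutants and 6.62 to 6.74 in controls, without overlap. Krt15, Dapl1, Krt4, Krt17 and Trp63 rose, with log2 changes of 2.04, 1.28, 1.22, 1.17 and 0.71. Krt14, Krt13 and Ngfr stayed level, at −0.06, −0.01 and 0.02, so the rise did not cover the whole list. The 10 lung epithelial markers had 1 gene lower, Foxa1, with a mean level of 10.54 to 10.61 in mutants and 10.64 to 10.75 in controls, again without overlap. Their median log2 change was −0.07. Foxa1, Etv5, Epcam and Foxa2 had −0.56, −0.33, −0.26 and −0.20. Nkx2-1, Cdh1, Sox2 and Sox9 lay between −0.10 and −0.02, while Sftpc and Id2 went the other way, at 0.08 and 0.12. Mesenchymal markers, with 0 of 8 called, had 11.11 to 11.13 in mutants and 10.96 to 11.10 in controls and a gap of 0.01, and the Meox2 of that list went the other way, at −0.17 (adjusted p = 0.346, limma). Mesothelial markers had 1 of 5 higher, Upk1b, with a mean level of 8.28 to 8.38 in mutants and 8.12 to 8.25 in controls, without overlap. Upk1b had the largest log2 change of that list, 0.46. Msln, Upk3b, Lrrn4 and Wt1 had 0.17, 0.08, 0.00 and −0.01, each with overlap. Endothelial markers, with 0 of 10 called, had 10.31 to 10.38 in mutants and 10.21 to 10.37 in controls. Of their changes 8 were positive and 2 negative, and Tek at 0.19 and Cdh5 at 0.10 had every mutant above every control. Arterial markers, with 0 of 6 called, had 8.84 to 8.91 in mutants and 8.82 to 8.89 in controls. Of these changes 3 were positive and 3 negative, and Nrp1, at 0.14, had every mutant above every control. Smooth muscle and pericyte markers had 1 of 10 lower, Cnn1, with 9.88 to 9.95 in mutants and 9.88 to 10.08 in controls.

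The airway fates that Notch balances were described in the same way. Of 7 club cell markers 2 rose, Cbr2 with a log2 change of 2.26 (4.78-fold; adjusted p = 5.99e-07, limma) and Lypd2 with 0.43 (adjusted p = 0.0321, limma). The mean log2 level of the list was 7.13 to 7.38 in mutants and 6.61 to 6.84 in controls, without overlap. Cyp2f2 had 0.64 (adjusted p = 0.136, limma), with every mutant above every control. The secretoglobins Scgb1a1, Scgb3a1 and Scgb3a2 had 0.01, 0.04 and 0.06, and the median of the 7 was 0.07. These secretoglobins were dim, with mutant means of 4.64, 6.91 and 6.74, below the array medians of 7.048 to 7.118. The ciliated markers Ccno and Tubb4b and the neuroendocrine marker Resp18 were dim too, at 6.47, 6.45 and 5.91 in mutants. Changes near 0 in such dim genes say little about the fates. Of 8 ciliated markers 0 were called, with a median log2 change of 0.04 and a mean level of 7.55 to 7.69 in mutants and 7.50 to 7.64 in controls. The regulator Foxj1, at 0.18 with overlap, and Myb, at −0.26 with every mutant below every control, both missed the threshold (adjusted p = 0.656 and 0.213, limma). Of 6 neuroendocrine markers measured 0 were called, with a median of 0.05 and a mean level of 8.20 to 8.34 in mutants and 8.17 to 8.24 in controls. Chga, at 0.25, and Nnat, at −0.19, went opposite ways without overlap (adjusted p = 0.245 and 0.465, limma).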

How the data were processed

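Whole-lung RNA of 8 embryos was hybridised to 1-colour arrays. The authors deposited log2 values for each probe set, made with RMA in oligo per the submitters' processing notes, with versions not given in the sources used here. Such normalization makes arrays alike and draws the changes of dim genes towards 0. No detection calls came with the values, and the number of arrays limits the precision.

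Of 41345 probe sets 23521 had 1 gene symbol, 1814 had several and 16010 were not listed in the annotation, which can be old. Each of 22180 genes was read from its probe set with the highest mean. Mutants were compared with controls by limma 3.58.1 in R 4.3.3, with littermates as a random block (estimated correlation 0.153) and moderated variances. Tests were two-sided, with p adjusted by Benjamini-Hochberg over 22180 genes and a threshold of 0.05. The embryos are separate animals. Alternatives (24) covered litters, embryos left out, scaling, dim genes, probe sets, the variance prior, array weights and sex. In 5 simulated data sets of 22180 genes the fit called 44% of genes changed 1.25-fold and 82.8% of those changed 1.5-fold, and 8.7% of calls were false. Members and lists were chosen with earlier results of these data known. Text names every member and, of the other pathway genes, those called and the 4 with the largest change in each direction. Other pathway genes named beside them (Dll3, Dlk1, Dlk2, Dner, Adam10, Adam17, Hes5, Hes6, Heyl and Nrarp) were picked by role after values were seen. The other 3 listed pathway genes were not analysed here. Promoter sequences and gene order came from RefSeq tables of GRCm38.p6. Figures used Python 3.11.15 and matplotlib 3.10.9.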

Additional observations from a re-analysis of the deposited data

How the results depend on the processing

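Every fit that leaves out a litter also drops the litter block, so it changes both choices at once. The log2 change kept its sign in 24 of 24 alternatives for Jag2, Jag1, Notch2 and Notch3, but the number of Notch genes called higher, 1 in the reported fit, was not stable. It was 0 with litter means, with arrays centred on the median, with every probe set tested and without the block and litter 1, 3 or 4. It was 2 (Jag2 and Notch2) without the block alone, without the block and litter 2, with cyclic loess, with the trended prior and with Xist as a covariate. Leaving out 1 embryo gave 0 to 1, and the 1 was Notch2 without control 4. Called genes, 134 higher and 55 lower, were 65 and 33 with litter means, 77 and 26 with every probe set tested, 75 and 23 without the block and litter 4 (190 and 95 without the block alone), and 361 and 313 with Xist as a covariate. Without 1 embryo they were 73 to 157 higher and 28 to 75 lower, the lowest without mutant 4 and the next without control 4 (89 and 32). The lower count was 95 without the block alone, 90 without the block and litter 1, and 90 with cyclic loess. The causes were not tested, beyond the fewer embryos or the more features of some settings. Median centring shifted all changes by −0.03 and cyclic loess by −0.01 in the median.

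Genes near 0 changed sign without any call. Dll1 was at −0.026 and Dll4 at 0.023 without litter 2, and Hes1 at 0.020 without litter 4. Hey1 was at 0.132 without litter 2, 0.070 without litter 3, 0.002 with cyclic loess and 0.005 with array weights. Hey2 was at −0.044 without litter 1, −0.008 without litter 4, −0.028 with median centring and −0.010 with Xist. Without 1 embryo Notch1 ran from 0.000 to 0.12, Hey1 from −0.068 to 0.067 and Hey2 from −0.023 to 0.029.

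The replicate numbers of the labels do not pair embryos across genotypes, which came from separate litters, and deviations of same-numbered embryos correlated at −0.23, −0.049, −0.272 and 0.027. With the number as a replicate block and no litter correlation, 140 genes were higher, 55 lower, and 0 Notch genes were called (Jag2 adjusted p = 0.0698, limma). The filter on dim genes left no value for Dll1.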

Other observations

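The genes around Jag2 and Notch2 were read from the RefSeq order, a look taken after the members' values were seen. The 3 tested genes on either side of Jag2 were Clba1, Cdca4, Gpr132, Nudt14, Gm26583 and Brf1, with log2 changes of −0.05, −0.02, −0.03, −0.22, −0.01 and 0.05, and none passed. In all 6 the groups overlapped. Around Notch2, Pde4dip, Sec22b, Adam30 and Phgdh had −0.09, −0.07, −0.06 and −0.00, while the neighbouring gene model Gm5544 had 0.32 ± 0.09 (SE, n = 4 per group) and Reg4, a secreted lectin gene, 0.19 ± 0.07. Neither passed (adjusted p = 0.2 and 0.36, limma). In both all mutants lay above all controls, as they did for 4.48% of all genes.

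The genes whose values across the 8 embryos were most like those of Jag2, among 11089 compared, were Dgkk, Mapkapk3, Gramd2, Slc6a6 and Clstn1, with Pearson correlations of 0.983, 0.979, 0.974, 0.974 and 0.973. These describe 8 embryos of both genotypes, which share arrays and litters. Because Jag2 itself separates the genotypes, the measure favours genes that do so too. Notch2 ranked 104 by the same measure, at 0.901. A probe set annotated to both Gm14207 and Dll4, which was not used, differed by 0.09 ± 0.09 on the log2 scale (SE, n = 4 per group).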
